A study of Homo sapiens with 6 samples.

Results

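The genes of cholesterol and fatty acid synthesis were examined as a list of 33 symbols chosen by function, all of which were found among the 17039 genes of the expression table. The list held 7 genes of the mevalonate steps, 10 of the squalene and sterol steps, 4 regulators, 3 of sterol transport, 4 of acetyl-CoA supply and fatty acid synthesis, and 5 of desaturation and elongation. Poly(A) RNA had been sequenced from MDA-MB-231, a human triple-negative breast cancer line, and from 231-BR, a brain-seeking variant of it, with 3 libraries of each. Both lines were grown in DMEM with serum and antibiotics, and G418 was present in the 231-BR medium alone. The 231-BR cells were a gift from another laboratory, whereas the MDA-MB-231 cells were bought from ATCC. The line, this drug and the source and culture history of the cells cannot be told apart. Each group is a single cell line. The labels call the samples independent without naming separate cultures, so p-values measure the spread between these libraries, which may be technical.

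Animal cells make cholesterol from acetyl-CoA through mevalonate, isoprenoid units, squalene and lanosterol, and make fatty acids from acetyl-CoA and malonyl-CoA. Both routes are governed by the sterol regulatory element-binding proteins, which SREBF1 and SREBF2 encode. SCAP carries their precursors from the endoplasmic reticulum to the Golgi apparatus for cleavage, INSIG1 holds SCAP back when sterols are plentiful, and the released factors act on promoters that often also hold boxes for the factors NF-Y and Sp1. The brain makes its own cholesterol, since the blood-brain barrier keeps out that of the plasma.

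Levels are FPKM, in which fragments are scaled by the length of the transcript and by the depth of the library, and can be compared between genes. Differences are log2 fold changes of 231-BR as compared with MDA-MB-231 cells after 0.1 was added to each FPKM, from a limma fit across the 13465 genes whose FPKM averaged 0.1 or more, with Benjamini-Hochberg adjusted p-values. Errors of levels are SD over 3 libraries. The libraries summed to between 465019.8 and 496420.0 FPKM, and their depth is unknown because read counts were not used here. VIM, a marker of the mesenchymal state of this line, lay between 2273 and 2566 FPKM. Other genes listed as high in such a line differed between the lines in both directions. EGFR averaged 91.2 FPKM in 231-BR and 33.3 FPKM in MDA-MB-231 cells. CD44 (181 and 251 FPKM), KRT8 (176 and 237 FPKM) and KRT18 (273 and 352 FPKM) were lower in 231-BR cells. The receptor genes ESR1 and PGR reached at most 1.08 and 0.07 FPKM, and 7 markers of immune, endothelial, astrocyte and neuronal cells lay between 0 and 0.48 FPKM.

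Most of the pathway was expressed at a higher level in 231-BR cells. Of the 32 members that could be tested, 24 rose (75.0%), where 44.4% of all genes tested rose, and 6 fell (18.8%), where 32.9% of all genes fell. PMVK and LSS did not pass an adjusted p of 0.05, and ABCG1 was too low to be tested. A pass is common in this comparison, since 77.3% of all genes reached it in either direction. The counts by step given below cover few genes each and are to be read beside these shares of all genes. The median log2 fold change of the tested members was 0.60, beside 0.08 over all genes tested. A change of more than 2-fold was met by 7 members (21.9%) and by 15.2% of all genes: SCD, ABCA1, TM7SF2, FADS2, SREBF1 and MVK rose, and EBP fell. The count was 6 with only genes averaging 1 FPKM or more, where ABCA1 (0.24 and 0.04 FPKM) was left out. It was 5 with median-of-ratios scaling, where MVK and SREBF1 were lost. With quantile scaling or a pseudocount of 1 it was 3, where EBP, SCD and FADS2 were left. No 231-BR library fell within the range of the MDA-MB-231 libraries, or the reverse, for 30 of the 32 members and for 78.4% of all genes, the exceptions being PMVK and MVD. Less RNA per cell and fewer cells that express a gene cannot be told apart in these bulk libraries.

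**Figure D1:**
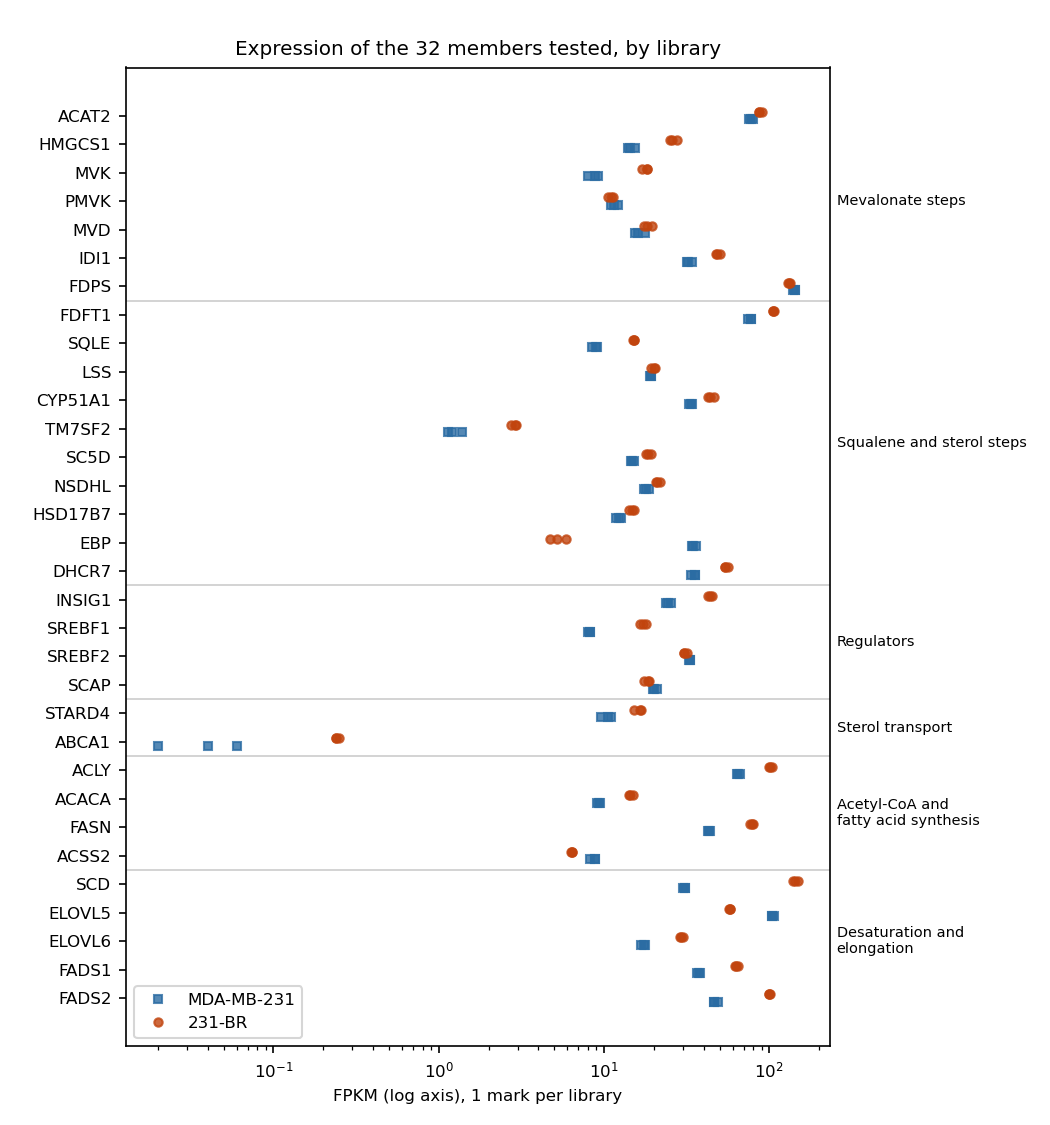
FPKM of the tested members in each of the 6 libraries on a log axis, with members ordered by their step in the pathway. Libraries of a line lie close together, most members are higher in 231-BR cells, and EBP, ELOVL5 and ACSS2 are among the 6 that are lower.

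The widest changes were those of SCD, which introduces a double bond into saturated fatty acids, and EBP, the isomerase that shifts a double bond within the sterol ring. Their promoters are shown with that of MVK, which held 5 NF-Y boxes, and that of SREBF2, the only member whose window held the core of the sterol regulatory element. Each sequence is the 250 bases before the RefSeq start on GRCh38.p14, 5′ to 3′, and all 4 genes lie on the plus strand. Capitals mark NF-Y boxes (CCAAT, or ATTGG for the other strand) and, in SREBF2, the core TCACNCCAC as well. The windows are chrX:48521558-48521807 for EBP, chr10:100346983-100347232 for SCD, chr12:109573544-109573793 for MVK and chr22:41832855-41833104 for SREBF2.
EBP: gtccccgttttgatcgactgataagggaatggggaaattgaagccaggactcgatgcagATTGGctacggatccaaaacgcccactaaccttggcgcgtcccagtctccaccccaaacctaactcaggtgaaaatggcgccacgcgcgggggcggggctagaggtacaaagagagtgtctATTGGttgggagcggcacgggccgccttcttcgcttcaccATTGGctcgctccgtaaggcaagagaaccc
SCD: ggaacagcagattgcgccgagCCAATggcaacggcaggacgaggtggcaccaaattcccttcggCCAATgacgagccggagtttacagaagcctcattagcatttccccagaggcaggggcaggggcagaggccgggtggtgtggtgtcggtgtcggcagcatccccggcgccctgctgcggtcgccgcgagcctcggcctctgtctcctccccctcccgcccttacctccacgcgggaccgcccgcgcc
MVK: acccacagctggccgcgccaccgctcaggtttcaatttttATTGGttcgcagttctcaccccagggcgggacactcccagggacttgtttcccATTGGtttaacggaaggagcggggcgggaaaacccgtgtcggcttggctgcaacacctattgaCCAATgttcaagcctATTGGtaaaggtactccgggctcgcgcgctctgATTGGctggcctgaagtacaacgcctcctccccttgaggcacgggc
SREBF2: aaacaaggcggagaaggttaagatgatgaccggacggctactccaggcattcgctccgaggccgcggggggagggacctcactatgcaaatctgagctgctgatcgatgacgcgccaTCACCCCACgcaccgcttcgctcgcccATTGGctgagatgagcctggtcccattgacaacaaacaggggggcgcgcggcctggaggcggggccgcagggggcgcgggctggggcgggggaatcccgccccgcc

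These stretches held 3 NF-Y boxes in EBP, 2 in SCD, 5 in MVK and 1 in SREBF2. RefSeq promoter windows, from 250 bases before to 50 bases after a start, were matched for 28 members, the others being ACAT2, FDFT1, SQLE, FASN and ABCG1. On either strand, at least 1 NF-Y box was present in 21 of the 28 members (75.0%), beside 43.1% of the 10920 tested genes with a window. The box was found in 15 of the 20 members that rose and in 5 of the 6 that fell, so it was present in EBP as well as in SCD. The Sp1 box GGGCGG was present in 26 of the 28 members (92.9%) and in 75.8% of the tested genes. The core TCACNCCAC was found in 1 member, 133 bases before the start of SREBF2, and in 1.57% of the tested genes. A gene with several windows counted once if any of them matched, and matches on opposite strands overlapped in IDI1 and NSDHL. A match describes letters in this window and not binding.

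Among the regulators, SREBF1, best known for driving fatty acid genes, rose, whereas SREBF2, best known for driving cholesterol genes, was slightly lower. SREBF1 had 17.09, 17.92 and 16.60 FPKM in the 231-BR libraries and 7.96, 8.25 and 8.17 FPKM in the MDA-MB-231 libraries, a log2 fold change of 1.07 (SE 0.041, adjusted p = 6.5e-09). SREBF2 had 31.75, 30.55 and 30.53 FPKM in 231-BR and 33.35, 32.98 and 32.79 FPKM in MDA-MB-231 libraries, a log2 fold change of -0.09 (SE 0.028, adjusted p = 0.012). The libraries of the lines were apart for both genes, widely for SREBF1 and narrowly for SREBF2. The ratio of SREBF1 to SREBF2 was 0.556 ± 0.026 in 231-BR and 0.246 ± 0.0064 in MDA-MB-231 cells.

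INSIG1, itself a target of these factors, rose, and its partner SCAP fell. INSIG1 had 44.97, 42.28 and 43.82 FPKM in 231-BR and 24.30, 25.28 and 23.64 FPKM in MDA-MB-231 libraries, a log2 fold change of 0.84 (SE 0.035, adjusted p = 1.1e-08). SCAP had 18.41, 18.80 and 17.49 FPKM in 231-BR and 19.75, 20.08 and 20.87 FPKM in MDA-MB-231 libraries, a log2 fold change of -0.15 (SE 0.038, adjusted p = 0.0049). Each 231-BR library was above every MDA-MB-231 library for INSIG1 and below it for SCAP. INSIG1 had 2.40 ± 0.134 times the FPKM of SCAP in 231-BR and 1.21 ± 0.066 times in MDA-MB-231 cells.

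Of the 7 genes of the mevalonate steps, 5 rose, FDPS fell and PMVK did not pass the test, with a median log2 fold change of 0.18. MVK, the kinase that phosphorylates mevalonate, changed most. It had 18.07, 18.14 and 17.02 FPKM in 231-BR and 8.0, 9.25 and 8.79 FPKM in MDA-MB-231 libraries, a log2 fold change of 1.03 (SE 0.055, adjusted p = 6.6e-08). Without MDA-MB-231 replicate 1, its lowest library, that value was 0.97. HMGCS1, which condenses acetyl-CoA with acetoacetyl-CoA, rose from 14.5 ± 0.756 to 26.2 ± 1.43 FPKM, a log2 fold change of 0.84. IDI1, which interconverts the isoprenoid units, rose from 32.8 ± 1.22 to 48.7 ± 1.35 FPKM, a log2 fold change of 0.57. The rises of ACAT2, a thiolase that makes acetoacetyl-CoA, and of MVD, the mevalonate diphosphate decarboxylase, were small. ACAT2 had 87.8 ± 2.21 FPKM in 231-BR and 77.4 ± 2.43 FPKM in MDA-MB-231 cells, a log2 fold change of 0.18 (adjusted p = 2.9e-04). MVD had 18.3 ± 1.10 and 16.4 ± 1.24 FPKM, a log2 fold change of 0.16 (adjusted p = 0.030) that was lost under several other settings, with libraries that overlapped.

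The kinase after MVK, PMVK, had 11.0 ± 0.384 FPKM in 231-BR and 11.5 ± 0.559 FPKM in MDA-MB-231 cells, and its difference of -0.07 on the log2 scale (95% interval -0.18 to 0.03) did not pass (adjusted p = 0.19), although it did under the 2 other scalings tried. FDPS, which joins isoprenoid units into farnesyl diphosphate, was the most abundant member in MDA-MB-231 cells. It had 129.99, 133.96 and 132.22 FPKM in 231-BR and 138.51, 142.73 and 142.82 FPKM in MDA-MB-231 libraries, a log2 fold change of -0.10 (SE 0.023, adjusted p = 0.0032). The FDPS libraries were apart but differed little, and the call was lost with quantile scaling (-0.03, adjusted p = 0.17). Over between 34.7% and 74.0% of its length, the FDPS transcript is between 90.1% and 92.3% identical to those of 6 other genes. None of the 6 is in the expression table. The exons of ACAT2 and MVK overlap those of TCP1, SOD2 and MMAB on the opposite strand. The values of FDPS, ACAT2 and MVK are uncertain to that extent.

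Of the 10 genes of the squalene and sterol steps, 8 rose, EBP fell and LSS did not pass, with a median log2 fold change of 0.36. EBP moved the other way from most of the route. It had 5.21, 5.87 and 4.74 FPKM in 231-BR and 34.04, 34.49 and 35.86 FPKM in MDA-MB-231 libraries, a log2 fold change of -2.70 (SE 0.067, 95% interval -2.85 to -2.55, adjusted p = 2.8e-10). The level was 6.60 times higher in MDA-MB-231 cells, and its log2 fold change was the 92nd from the lowest of 13465 genes. From the second most abundant of the 10 sterol genes in MDA-MB-231 cells, where its libraries overlapped those of DHCR7, EBP became the ninth in 231-BR cells. TM7SF2, a sterol reductase, was the least abundant of the 10 in both lines. It had 2.92, 2.88 and 2.75 FPKM in 231-BR and 1.38, 1.21 and 1.13 FPKM in MDA-MB-231 libraries, a log2 fold change of 1.14 (SE 0.090, adjusted p = 1.1e-06), and all 3 libraries of 231-BR were higher.

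The other sterol genes that rose did so by less than 2-fold. SQLE, the epoxidase of squalene, rose from 8.84 ± 0.304 to 15.1 ± 0.159 FPKM, a log2 fold change of 0.77. DHCR7, which completes cholesterol in one branch, rose from 34.7 ± 1.03 to 54.7 ± 1.21 FPKM, a log2 fold change of 0.65. FDFT1, the squalene synthase, rose from 76.4 ± 1.58 to 106 ± 1.48 FPKM, a log2 fold change of 0.47. FDFT1 and SQLE act before EBP in the route, and DHCR7 acts after it. CYP51A1, the lanosterol demethylase, had 44.1 ± 1.78 and 33.4 ± 0.562 FPKM in 231-BR and MDA-MB-231 cells (log2 fold change 0.40). SC5D, a sterol desaturase, had 18.5 ± 0.679 and 14.8 ± 0.326 FPKM (log2 fold change 0.32). NSDHL and HSD17B7 act together in removing methyl groups at the sterol ring. HSD17B7 had 14.7 ± 0.560 and 12.3 ± 0.467 FPKM (log2 fold change 0.26), and NSDHL had 21.1 ± 0.613 and 18.1 ± 0.634 FPKM (log2 fold change 0.22). LSS, which closes the rings of lanosterol, had 19.9 ± 0.506 and 19.1 ± 0.13 FPKM, a log2 difference of 0.06 (95% interval -0.01 to 0.13, adjusted p = 0.13) whose sign turned under the 2 other scalings tried. The HSD17B7 transcript is 98.4% identical to that of HSD17B7P2 over 86.8% of its length. That of CYP51A1 is between 96.6% and 100% identical to others over between 47.0% and 88.7% of its length. The genes of those transcripts are not in the expression table. The values of HSD17B7 and CYP51A1 are uncertain to that extent. TM7SF2 overlaps VPS51 by 7 exon bases.

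Of the genes of sterol transport, STARD4, which moves sterols between membranes, rose from 10.4 ± 0.717 to 16.1 ± 0.815 FPKM, a log2 fold change of 0.62 (adjusted p = 3.5e-06). The exporters of cholesterol were barely expressed. ABCA1 had 0.24, 0.25 and 0.24 FPKM in 231-BR and 0.02, 0.04 and 0.06 FPKM in MDA-MB-231 libraries. Its libraries did not overlap, and its log2 fold change of 1.30 (SE 0.193, adjusted p = 1.3e-04) depends on the amount added to the FPKM, ranging from 0.26 to 2.42 over the settings tried. ABCG1 was listed at 0 FPKM in 5 libraries and at 0.01 in MDA-MB-231 replicate 3.

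**Figure D2:**
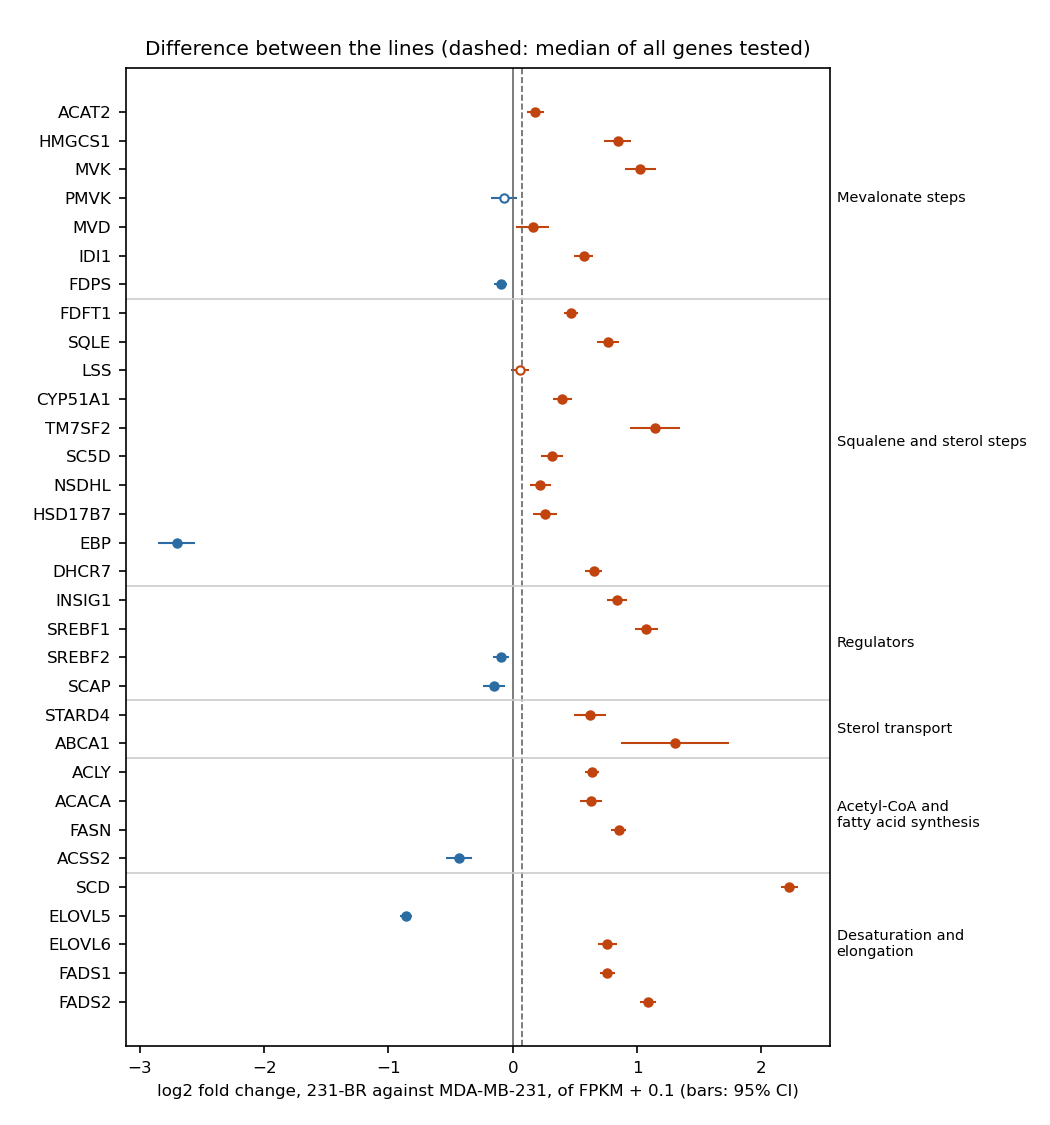
Log2 fold change of each tested member, 231-BR against MDA-MB-231, with its 95% interval from the limma fit; open circles did not pass the test, and the dashed line is the median of all genes tested. SCD at 2.23 and EBP at -2.70 stand furthest from 0, and the intervals of PMVK and LSS cross 0.

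Of the 4 genes of acetyl-CoA supply and fatty acid synthesis, 3 rose and ACSS2 fell. FASN, the fatty acid synthase, rose from 43.2 ± 0.791 to 78.1 ± 1.68 FPKM, a log2 fold change of 0.85. ACLY, which makes acetyl-CoA from citrate, rose from 65.0 ± 1.08 to 101 ± 2.2 FPKM, a log2 fold change of 0.64. ACACA, which makes malonyl-CoA, rose from 9.29 ± 0.212 to 14.4 ± 0.460 FPKM, a log2 fold change of 0.63. ACSS2 makes acetyl-CoA from acetate instead. It had 6.29, 6.39 and 6.37 FPKM in 231-BR and 8.25, 8.79 and 8.79 FPKM in MDA-MB-231 libraries, a log2 fold change of -0.43 (SE 0.046, adjusted p = 1.1e-05), with every 231-BR library lower. The FPKM of ACLY was 15.9 ± 0.352 times that of ACSS2 in 231-BR and 7.55 ± 0.210 times in MDA-MB-231 cells.

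Of the 5 genes of desaturation and elongation, 4 rose and ELOVL5 fell. SCD had 148.16, 142.10 and 139.37 FPKM in 231-BR and 29.91, 30.99 and 30.72 FPKM in MDA-MB-231 libraries, a log2 fold change of 2.23 (SE 0.029, 95% interval 2.16 to 2.29, adjusted p = 7.5e-12). It went from the 14th of the 33 members by level in MDA-MB-231 cells to the first in 231-BR cells, with libraries far apart. FADS2, which begins the desaturation of polyunsaturated fatty acids, had 101.47, 100.02 and 99.22 FPKM in 231-BR and 46.03, 46.33 and 48.89 FPKM in MDA-MB-231 libraries, a log2 fold change of 1.09 (SE 0.029, adjusted p = 4.2e-10). FADS1, the next desaturase of that route, rose from 37.2 ± 0.788 to 63.2 ± 1.13 FPKM, a log2 fold change of 0.76. FADS1 and FADS2 are neighbours whose exons overlap by 142 bases on opposite strands, and FADS2 overlaps FEN1 by 49 bases.

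The elongases moved in opposite directions. ELOVL6, which lengthens saturated and monounsaturated fatty acids, rose from 17.2 ± 0.430 to 29.3 ± 0.655 FPKM, a log2 fold change of 0.76. ELOVL5, which lengthens polyunsaturated ones, had 57.98, 58.16 and 57.28 FPKM in 231-BR and 106.69, 104.03 and 104.11 FPKM in MDA-MB-231 libraries, a log2 fold change of -0.86 (SE 0.023, adjusted p = 4.8e-10). It was the second most abundant member in MDA-MB-231 cells and the ninth in 231-BR cells, and its libraries were far apart.

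The balance between members was compared within each library for 8 pairs, which were chosen with the values known. The FPKM of SCD was 1.83 ± 0.060 times that of FASN in 231-BR and 0.707 ± 0.0072 times in MDA-MB-231 cells. The ratio of ELOVL6 to ELOVL5 was 0.506 ± 0.0082 and 0.164 ± 0.0044, that of FADS2 to FADS1 was 1.59 ± 0.012 and 1.27 ± 0.069, and that of EBP to NSDHL was 0.251 ± 0.034 and 1.93 ± 0.042. Against SC5D, which acts right after it, EBP stood at 0.286 ± 0.038 and 2.35 ± 0.088. Values of 231-BR and MDA-MB-231 libraries overlapped in none of the 8 ratios, including those of SREBF1 to SREBF2, INSIG1 to SCAP and ACLY to ACSS2 given above. In an exact two-sided permutation test each had p = 0.1 (adjusted p = 0.1 over the 8), the smallest that 3 libraries against 3 allow. Because the pairs were chosen with the values known, neither the separation nor this p tests whether a balance differs.

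**Figure D3:**
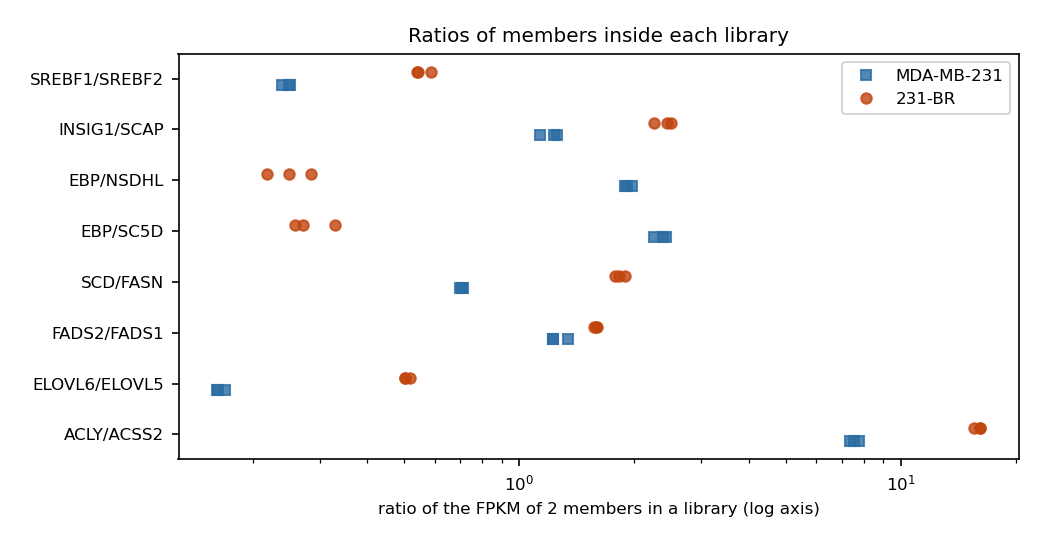
Ratio of the FPKM of the members of each of 8 pairs in every library, on a log axis. EBP against NSDHL and against SC5D is lower in 231-BR libraries, the other 6 ratios are higher, and in no pair do the 2 lines overlap.

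Summed over the genes of a step, the ratio of the lines was lowest for the mevalonate steps and highest for desaturation and elongation. The sum over the mevalonate genes was 342 ± 3.01 FPKM in 231-BR and 303 ± 0.541 FPKM in MDA-MB-231 cells, 1.13 times as high. That of the squalene and sterol genes was 302 ± 3.73 and 254 ± 1.28 FPKM, 1.19 times as high. That of acetyl-CoA supply and fatty acid synthesis was 1.59 times as high, and that of desaturation and elongation, at 394 ± 7.11 and 237 ± 0.405 FPKM, was 1.66 times as high. These sums describe the list and carry no test, and abundant genes weigh most in them. SCD alone gives 143 of the 394 FPKM in the last, against 30.5 of the 237 FPKM of MDA-MB-231 cells. Without SCD, that step would not have the highest ratio. EBP, which fell from 34.8 to 5.27 FPKM, lowers the ratio of the sterol steps. FDPS (132 FPKM) and ACAT2 (87.8 FPKM) give most of the mevalonate sum of 231-BR cells. Median log2 fold changes, which weigh each gene alike, kept the order of the steps named so far, at 0.18, 0.36, 0.63 and 0.76. The sums of the regulators and of sterol transport were 1.28 and 1.56 times as high, with medians of 0.37 and 0.96. By median, sterol transport was thus the highest, but that value rests on STARD4 and the barely expressed ABCA1.

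The members lie on many chromosomes, and some stand in stretches where most genes moved the same way. For SQLE on chromosome 8, all 40 neighbouring genes (20 on either side with a mean FPKM of at least 1) had a log2 fold change above 0, with a median of 0.76 beside 0.77 for SQLE itself. The neighbours of MVK on chromosome 12 had a median of 0.58 and those of ELOVL6 on chromosome 4 one of 0.44. Neighbours of ACACA, ACLY and FASN on chromosome 17 had medians of 0.36, 0.31 and 0.23. Medians above 0 were also found for SREBF1 (0.29), FADS1 and FADS2 (0.30 each) and HMGCS1 (0.28). For other members that rose the median lay below 0, as for TM7SF2 (-0.23), INSIG1 (-0.16) and IDI1 (-0.16). The part of the position in the values of these members was not tested. SCD on chromosome 10 had neighbours with a median of 0.05. The neighbours of EBP on chromosome X had a median of -0.30, and the adjoining genes PORCN and TBC1D25 had log2 fold changes of -0.30 and -0.05. The lowest of the 40 neighbours of EBP was at -1.35, so EBP lay below all of them. The neighbours of ELOVL5 on chromosome 6 had a median of -0.38. SC5D and HSD17B7 rose, at 0.32 and 0.26, but lay below the medians of their neighbours, 0.37 and 0.30. Members picked for a rise tend to lie above such medians, so the other members that rose are not counted against theirs.

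**Figure D4:**
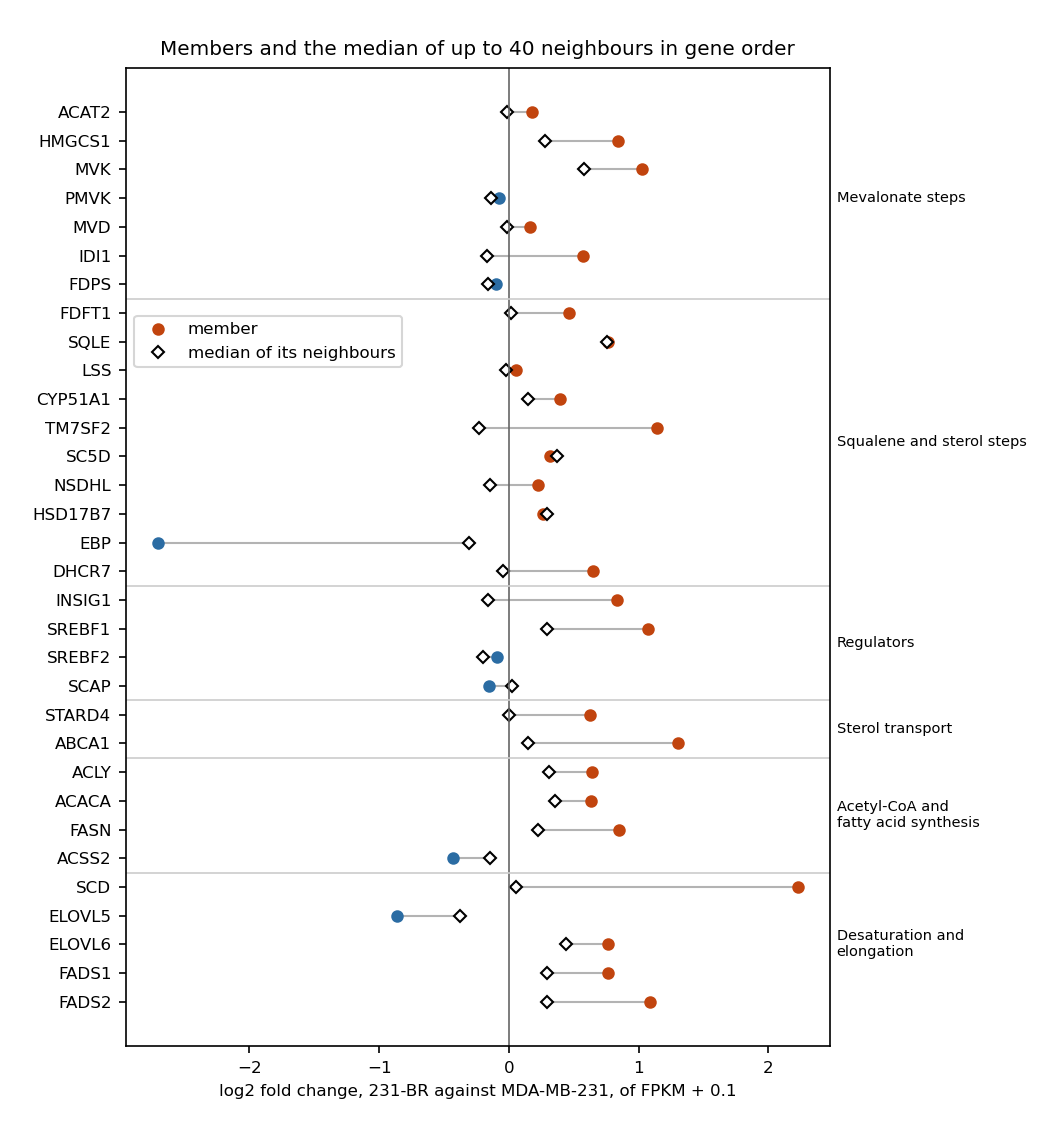
Log2 fold change of each tested member (filled circles, orange above 0 and blue below 0) and the median of up to 40 neighbours in gene order (open diamonds). SQLE lies on its neighbours' median of 0.76, whereas SCD, TM7SF2 and EBP lie far from theirs.

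Of 74 other genes of these pathways found in the table, 69 were tested, of which 38 rose (55.1%, beside 44.4% of all genes), 18 fell (26.1%, beside 32.9%) and 13 did not pass, with a median log2 fold change of 0.28 beside 0.08 over all genes. By list, 6 of 11 tested genes of the isoprenoid branches rose and 4 fell, 3 of 7 of other sterol steps rose and 2 fell, and 3 of 8 of the processing and turnover of the factors rose and 2 fell. Of sterol uptake, storage and transport, 6 of 12 rose and 3 fell. Of oxysterols and their receptors, 4 of 6 rose and 1 fell, and of fatty acid supply, elongation and activation, 16 of 25 rose and 6 fell. A change of more than 2-fold was met by 9 of the 69 genes, of which 8 rose. That is 13.0%, beside 15.2% of all genes, so these genes are given as single values.

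GRAMD1A and GRAMD1B encode related proteins that carry cholesterol from the plasma membrane inwards. GRAMD1B rose from 0.337 ± 0.021 to 5.01 ± 0.135 FPKM, a log2 fold change of 3.55 (adjusted p = 2.6e-10). GRAMD1A fell from 13.2 ± 0.223 to 5.58 ± 0.491 FPKM, a log2 fold change of -1.22 (adjusted p = 4.0e-08). The paralogues were thus close in level in 231-BR cells and far apart in MDA-MB-231 cells. GGPS1, which turns farnesyl diphosphate into geranylgeranyl diphosphate, rose from 3.44 ± 0.064 to 9.67 ± 0.626 FPKM, a log2 fold change of 1.46 (adjusted p = 8.2e-09). RNF139, a ubiquitin ligase of the endoplasmic reticulum, rose from 1.83 ± 0.084 to 4.41 ± 0.13 FPKM, a log2 fold change of 1.23 (adjusted p = 7.7e-08). ACACB, the mitochondrial counterpart of ACACA, rose from 0.497 ± 0.058 to 1.37 ± 0.058 FPKM, a log2 fold change of 1.31 (adjusted p = 2.4e-06). ACSL4, which activates long polyunsaturated fatty acids, rose from 37.4 ± 1.03 to 84.5 ± 1.97 FPKM, a log2 fold change of 1.17 (adjusted p = 3.1e-10). DGAT2, which completes triglycerides, rose from 1.65 ± 0.203 to 4.01 ± 0.086 FPKM, a log2 fold change of 1.23 (adjusted p = 5.7e-07).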

How the data were processed

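RNA of 3 libraries of 231-BR and 3 of MDA-MB-231 cells was sequenced on the BGISEQ-500 platform. The authors filtered reads with SOAPnuke and, per the submitters' processing notes, used HISAT2 2.0.4, Bowtie2 2.2.5 and the build GRCh38.p12. The authors deposited FPKM per gene with 2 decimals. Bowtie2 placed the reads on a gene set built by the sequencing company from known and newly found coding transcripts. The program that computed the FPKM, the release of that gene set and the use of strand are not given in the sources used here, and FPKM hold no depth, so limma was used in place of the count test of the study's methods. Read filtering, multi-mapping and the gene models used can shift single genes. Libraries were grouped by title, since the number in the cell line field of the labels counts up from replicate to replicate. All 6 columns of samples were used, and the per-library files equalled the table in 6 of 6 cases.

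The log2(FPKM + 0.1) of the 13465 genes averaging 0.1 FPKM or more was modelled by line in limma 3.58.1 (R 4.3.3; lmFit, then eBayes with a trend), and Benjamini-Hochberg adjustment covered all of them. Calls had an adjusted p under 0.05. The script was tested on simulated data. Ratios were tested by exact permutation (scipy 1.17.1). Gene order and promoters came from RefSeq on GRCh38.p14, in which 16798 identifiers were found. Similar transcripts (at least 90% identity) and overlapping exons came from GENCODE release 29 (blastn 2.17.0). Neither neighbour medians nor motif counts carry a test. Replicate numbers were not taken to pair libraries.

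The members and lists were chosen with earlier results of these data known. All members are named, with every library for those past 2-fold, the 5 widest changes either way and the regulators. Other pathway genes are named when past 2-fold and averaging 1 FPKM or more in either line. Alternatives were another pseudocount, other filters, other scalings, a fit with no trend, a replicate block and leaving out each library.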

Additional observations from a re-analysis of the deposited data

How the results depend on the processing

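Over 14 other settings, between 23 and 24 members rose and between 6 and 7 fell. Of 447 single values, 434 kept their direction and their side of the threshold, and 28 members did so under every setting. Members changed by more than 2-fold numbered 7, but 3 with a pseudocount of 1 and 3 with quantile scaling (EBP, SCD and FADS2 in both), and 5 with median-of-ratios scaling. With only genes averaging 1 FPKM or more they numbered 6, without ABCA1. Leaving out 1 library gave between 6 and 7, with MVK at 0.97 without MDA-MB-231 replicate 1. Over all genes, the median log2 fold change moved from 0.08 to 0.0014 with median-of-ratios scaling and to -0.06 with quantile scaling, and the share of calls that were higher moved from 57.4% to 50.7% and 45.6%. LSS turned to -0.021 and -0.012 under these scalings, with adjusted p of 0.56 and 0.75. PMVK passed the test under both, at -0.15 and -0.17. MVD lost its call under both (adjusted p 0.24 and 0.25), with no filter (0.064), with no trend (0.083) and without 231-BR replicate 1 (0.061), 231-BR replicate 3 (0.13), MDA-MB-231 replicate 1 (0.11) or MDA-MB-231 replicate 2 (0.079). FDPS lost its call with quantile scaling (-0.03, adjusted p 0.17). The cause of these changes was not tested. Of the other pathway genes, between 35 and 40 rose and between 17 and 20 fell. With the replicate number as a block, 24 members rose and 6 fell, and 7 passed 2-fold. Deviations of libraries with the same number correlated at 0.087, -0.04 and -0.106, and those with different numbers at up to 0.183. These values give no sign that the numbers pair the libraries, but 3 libraries of a line are too few to exclude it. The depth is unknown, so no counting error could be given for the low values of ABCA1 and ABCG1.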
